A study of Mus musculus with 6 samples.

Results

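The genes described here encode the machinery that shortens poly(A) tails, removes caps and degrades mRNA. They were chosen by name: 41 genes of the CCR4-NOT complex, the other deadenylases and their adaptors, the decapping and 5′-to-3′ decay factors, nonsense-mediated decay and a small set of mRNA-binding repressors. All 41 were found among the 27179 identifiers of the count table, and all 41 passed the filter on low counts, among 14199 genes that did so. The 6 libraries are poly(A)-selected RNA of mouse embryonic stem cells of the ES-E14TG2a background, grown on gelatin in 2i medium (inhibitors of MEK and GSK3) with LIF, conditions of naive pluripotency. In 3 libraries (R783H A, B and C) the cells carried FLAG-tagged Trim71 with the R783H change, an amino-acid change associated with hydrocephalus, and in the other 3 (WT A, B and C) they carried FLAG-tagged Trim71 without it. The FLAG tag is thus common to both groups. Whether A, B and C are clones, cultures or library preparations is not stated, so p-values measure only the spread between these libraries, which may be technical.

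Most cytoplasmic mRNAs are degraded after their poly(A) tail has been shortened. PAN2-PAN3 and CCR4-NOT trim the tail, the DCP2 enzyme with its activators then removes the cap, and XRN1 digests the body from the 5′ end. Nonsense-mediated decay, run by the UPF and SMG proteins, sends transcripts with a premature stop codon into these steps, while Pumilio, ZFP36 and NANOS proteins bind particular mRNAs and bring CCR4-NOT to them. Trim71, a TRIM-NHL protein of early embryos and stem cells, is itself known as an mRNA-binding repressor, and the comparison asks which transcripts of this machinery differ when it carries R783H.

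The ZFP36 proteins bind AU-rich elements of mRNAs and the Pumilio proteins bind a short element of their own, so the 3′ UTRs of the members were searched for TATTTAT (AU-rich) and TGTANATA (Pumilio) on the transcript strand (longest protein-coding transcript of GENCODE M21, GRCm38, the assembly also called mm10). The search found 3 TATTTAT matches each in Zfp36, Zfp36l1 and Zfp36l2, in 3′ UTRs of 774, 1835 and 1822 nt, and 2 TGTANATA matches in Pum2. The sites below are examples of these matches in the ZFP36 genes and in Pum2. They are 30-base windows, written 5′ to 3′ as DNA, with the match in capitals, and come from chr7:28376950-28376979 and chr7:28376925-28376954 (Zfp36, minus strand), chr12:80108421-80108450 (Zfp36l1, minus), chr17:84184913-84184942 (Zfp36l2, minus) and chr12:8750154-8750183 and chr12:8750407-8750436 (Pum2, plus).
Zfp36 site at 590: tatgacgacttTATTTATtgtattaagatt
Zfp36 site at 615: agattttatagTATTTATatatattgggtc
Zfp36l1 site at 1150: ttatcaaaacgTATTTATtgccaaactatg
Zfp36l2 site at 822: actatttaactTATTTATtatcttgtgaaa
Pum2 site at 445: gtttatagagaTGTATATAgaattatagtt
Pum2 site at 698: atgtacagaatTGTATATActtataattgt
The positions count from the first base after the stop codon. A TATTTAT match is common, as 27.4% of 21025 genes with a 3′ UTR hold it, and 23.2% hold TGTANATA; a match is a description and not a measured binding site.

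Library totals ran from 20894277 to 29079670 counts, with the R783H libraries the deeper ones. Pairs of WT libraries and the pair R783H A and C differed by 1.95 to 4.27 in chi-square per degree of freedom, whereas R783H B stood at 10.6 and 11.6 from the others of its group. Among the 41 members R783H B had the lowest value of its group for 26, with a median log2 difference of -0.08 from the mean of A and C, and the gap was widest for Dcp2 (-0.42). Trim71 mRNA was not called different, at 152, 129 and 150.5 CPM (counts scaled by library total and TMM factor) in R783H A, B and C and 131, 131 and 159 CPM in WT A, B and C, although under an offset for transcript length and GC content, described further on, it was called lower (-0.26, adjusted p 0.00177). The 10 stem cell markers checked lay between 159 and 1427 CPM in every library; 4 of them were called lower in R783H (log2 fold changes in brackets), Utf1 (-0.67), Zfp42 (-0.36), Nanog (-0.23) and Pou5f1 (-0.21), and 2 higher, Dppa5a (0.30) and Tfcp2l1 (0.17; -0.17 with that offset). Levels of 8 fibroblast markers, which feeder cells would bring, summed to 3.21 to 4.26 CPM in R783H and 4.03 to 4.80 CPM in WT; 4 of them could be tested, and Thy1 was called lower. Summed levels of 8 neural markers, more from Tubb3 than from any other, were 84.0 to 91.4 CPM in R783H against 117 to 122 CPM in WT; Tubb3 (-0.80) and Neurod1 (-1.01) were called lower and Sox1 (0.66) and Map2 (0.96) higher. Those of 8 primitive endoderm markers were 18.9 to 21.0 against 20.3 to 23.5 CPM, a sum carried by Col4a1, which fell by 0.68 on the log2 scale, while the lineage factors Gata4 (3.19 ± 0.800 CPM in WT, 6.68 ± 0.510 CPM in R783H, SD, n = 3; 1.08) and Sox17 (0.369 ± 0.0803 and 0.897 ± 0.108 CPM; 1.29) rose. Of the other endoderm markers, Sox7 was lower in R783H (0.102 ± 0.0323 CPM) than in WT (0.667 ± 0.270 CPM) but did not pass the filter, nor did Foxa2. Gata6, Dab2 and Pdgfra were not called. The part of all these markers in the results was not tested.

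Of the 41 members, 17 were called higher and 12 lower in R783H, and 12 were not called (edgeR's quasi-likelihood test, Benjamini-Hochberg adjusted p under 0.05 over all genes). Across all tested genes 64.5% were called, 33.5% higher and 30.9% lower, so the share of members called is close to that of the whole transcriptome. For 30 of the 41 members no R783H library fell inside the WT range or the reverse, against 68.1% of all genes. Most of the changes were small. Just 5 members were called with an absolute log2 fold change of at least 0.5, against 30.3% of all genes, which were not matched to the members for level of counts. Dcp1b, Xrn1 and Cnot6l rose, and Nanos1 and Cnot11 fell. With the length and GC offset Xrn1 (0.22) and Cnot6l (0.13) were under 0.5, while Cnot6 (-0.62) and Dcp2 (-0.56) passed it. The median log2 fold change of the members was 0.02, beside 0.03 for all genes, and its sign changed with the scaling and with the library left out.

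**Figure D1:**
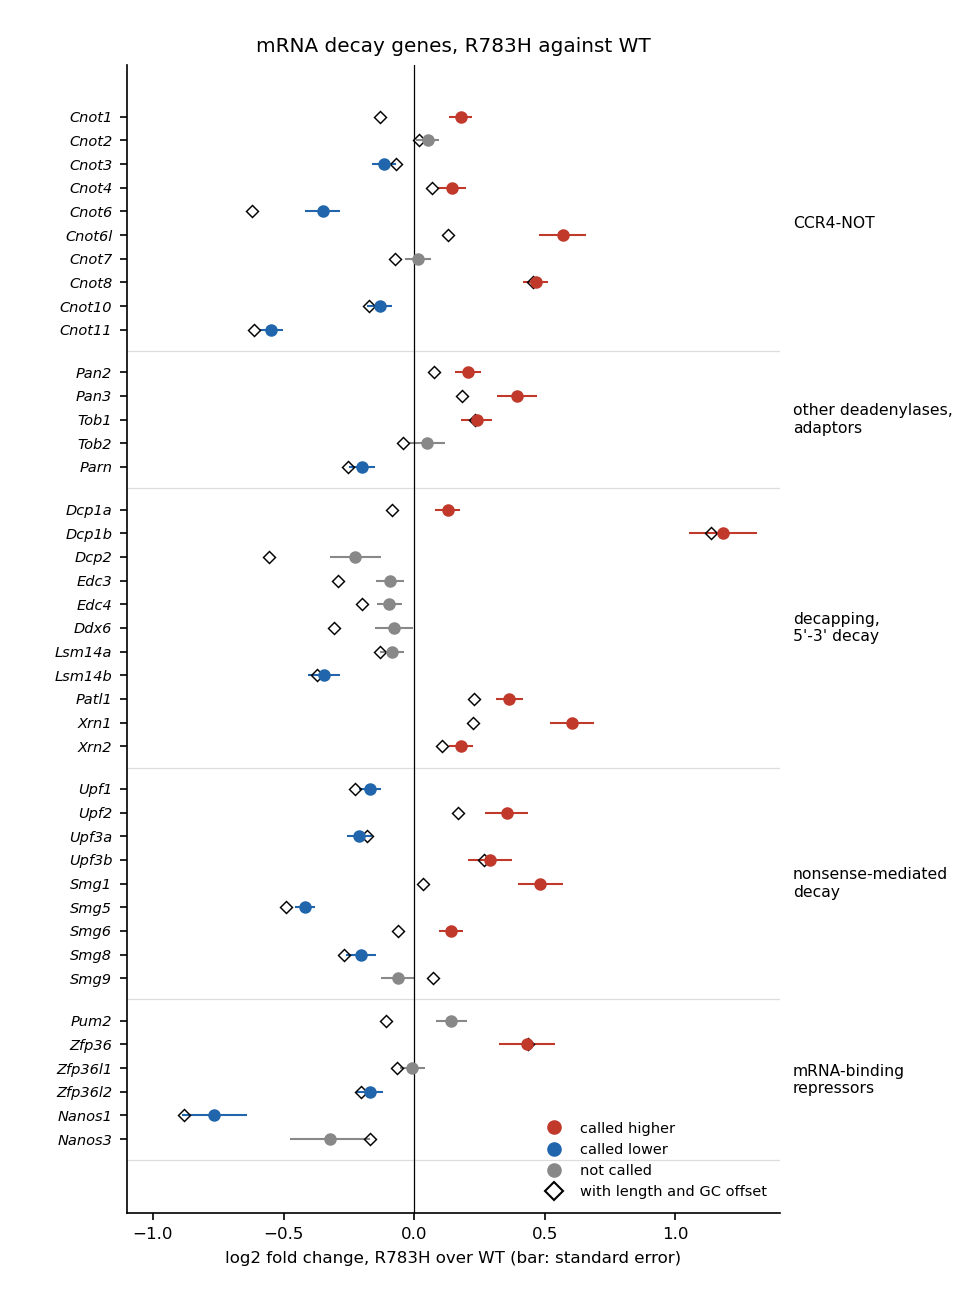
Log2 fold change of R783H over WT (x axis) for the 41 members, grouped by role, with the standard error as a bar; filled circles are colored by call, and open diamonds give the value with an offset for transcript length and GC content. Dcp1b stands furthest to the right at 1.18 and Nanos1 furthest to the left at -0.77, and most diamonds of long transcripts such as Smg1, Cnot6l, Xrn1 and Dcp2 lie to the left of their circles.

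Fold changes in these libraries followed transcript length (Spearman's rho 0.254 across 13763 genes, which are not independent replicates), and the members' transcripts are longer than most, with a median of 3530 nt against 3013 nt. The fold changes, the calls and the paralog ratios were therefore also computed with an offset that removes the trend with length and GC content in each library. Overlap of the groups, levels and counts by motif were not. With it 10 members were called higher and 18 lower, where 30.6% of all genes were higher and 37.3% lower. Of the 29 calls, 15 kept direction and call under all 16 alternative settings: Cnot8, Pan3, Tob1, Dcp1b, Patl1, Xrn1, Xrn2, Upf2 and Zfp36 higher, and Cnot6, Cnot11, Lsm14b, Upf3a, Smg5 and Nanos1 lower. These 15 were picked out after their values had been seen.

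CCR4-NOT is built on CNOT1, a scaffold of which the catalytic and regulatory subunits are bound along the length. Of its 10 listed genes 4 rose, 4 fell and 2 were not called, while under the length and GC offset 1 was called higher and 4 lower. Across all tested genes 33.5% were higher and 30.9% lower, and 30.6% and 37.3% with the offset. Per length of transcript, Cnot1 was the most abundant of them in WT, at 134 ± 2.76 CPM per kilobase (SD, n = 3), followed by Cnot3 (59.6 ± 2.41) and Cnot10 (52.0 ± 1.69), and Cnot6l was the least, at 1.17 ± 0.0757. Between them in WT stood Cnot2 (38.5 ± 0.750), Cnot11 (36.9 ± 0.577), Cnot8 (32.5), Cnot7 (26.2 ± 0.679), Cnot4 (15.9 ± 0.230) and Cnot6 (9.96 ± 0.705). In R783H Cnot8, at 44.9 ± 0.854 CPM per kilobase, stood above Cnot2 (39.9 ± 1.02), and Cnot11 (25.3 ± 0.599) stood beside Cnot7 (26.5 ± 1.19), with which its spread overlapped.

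**Figure D2:**
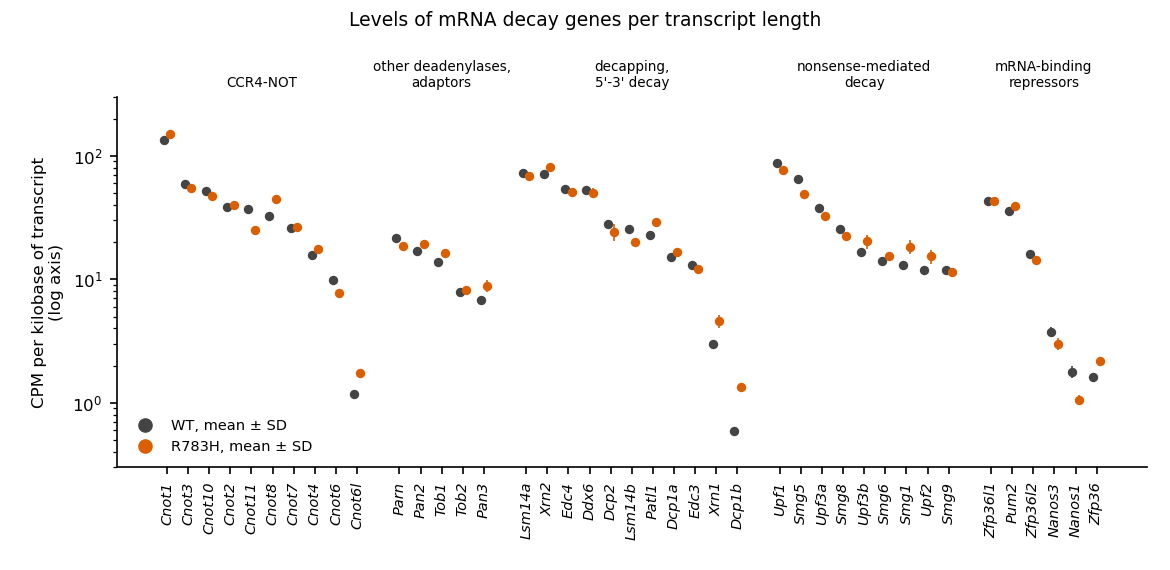
Level of each member as CPM per kilobase of its longest protein-coding transcript (y axis, log scale), mean ± SD of 3 libraries in WT (dark) and R783H (orange), ordered by WT level within each role. Cnot1 is the highest at 134 in WT, and Dcp1b the lowest at 0.590.

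CNOT6 and CNOT6L are the alternative exonucleases of the CCR4 type, which take the same place in the complex. Cnot6 (chr11:49671497-49713401) stood at 43.6, 42.8 and 48.0 CPM in R783H A, B and C and at 56.7, 53.3 and 61.4 CPM in WT A, B and C. All R783H libraries were below all WT libraries, with a log2 fold change of -0.35 (SE 0.07, adjusted p 7.22e-04). Cnot6l (chr5:96070333-96164198) went the other way, at 15.5, 13.4 and 15.8 CPM in R783H against 9.31, 10.5 and 10.3 CPM in WT, without overlap. Its log2 fold change was 0.57 (SE 0.09, adjusted p 2.13e-04). The ratio of the paralogs within a library does not depend on the scaling between libraries. How often ratios of other gene pairs separate the groups was not computed. Taken singly, 68.1% of all tested genes did not overlap between the groups. Cnot6 counts exceeded Cnot6l counts by 1.49, 1.67 and 1.60 log2 units in R783H and by 2.60, 2.34 and 2.57 in WT, a shift of -0.92; per length, the excess of Cnot6 over Cnot6l was 4.48-fold in R783H and 8.47-fold in WT. With the length and GC offset Cnot6 fell further (-0.62) and Cnot6l was no longer called (0.13), while the shift of the ratio was -0.76.

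CNOT7 and CNOT8 are the alternative exonucleases of the CAF1 type, and the ratio of their counts also differed between the groups. Cnot7 (chr8:40492538-40515847) was at 81.3, 75.0 and 80.9 CPM in R783H and at 76.2, 80.3 and 78.1 CPM in WT, which overlap (log2 fold change 0.02, SE 0.05, not called). Its exons share sequence with Zdhhc2 on the other strand. Cnot8 (chr11:58092794-58118597) was at 95.2, 95.3 and 92.1 CPM in R783H against 70.8, 68.9 and 65.1 CPM in WT, giving a log2 fold change of 0.46 (SE 0.05, adjusted p 9.20e-06) that the length and GC offset left at 0.46. The log2 ratio of Cnot7 to Cnot8 counts was -0.23, -0.34 and -0.19 in R783H and 0.11, 0.22 and 0.26 in WT. Cnot8 counts thus exceeded Cnot7 counts in each R783H library and were below them in each WT library. Per length, Cnot8 was the higher of the pair in both groups, with Cnot7 at 0.591 of it in R783H and 0.807 in WT. That order rests on annotated transcripts of 2982 nt for Cnot7 and 2099 nt for Cnot8, and the isoforms expressed were not measured.

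Among the structural subunits, Cnot11 fell most. CNOT11 forms a module with CNOT10 at the amino-terminal part of CNOT1. Cnot11 (chr1:39535701-39546881) was at 86.4, 87.3 and 90.3 CPM in R783H against 131, 128 and 127 CPM in WT, giving a log2 fold change of -0.55 (SE 0.04, adjusted p 1.22e-06), and the libraries of each group were tightly grouped. Its partner Cnot10 was lower by a small amount (-0.13, SE 0.05), as was Cnot3 (-0.12, SE 0.05), which with Cnot2 forms the NOT module; Cnot2 itself, at 105 to 114 CPM over the 6 libraries, was not called (0.05, SE 0.04). The scaffold Cnot1 (chr8:95718931-95808113) was at 1268, 1222 and 1315 CPM in R783H and 1104, 1112 and 1148 CPM in WT, without overlap and with a log2 fold change of 0.18 (SE 0.04, adjusted p 0.00334). The length and GC offset turned its call to lower, at -0.13. Cnot4, a ubiquitin ligase that is loosely attached to the complex, was higher by 0.15 (SE 0.05); it was not called under the length and GC offset (0.068, adjusted p 0.150), with RLE factors (0.12) or by DESeq2 (0.12).

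The small calls among these subunits were lost on leaving out most of the libraries, with the fold change about as large as before. Cnot3 was not called without R783H A (-0.11), R783H C (-0.12), WT A (-0.09), WT B (-0.14) or WT C (-0.13), nor Cnot4 without R783H A (0.11), R783H C (0.11), WT A (0.13), WT B (0.15) or WT C (0.14), nor Cnot10 without R783H A (-0.13), R783H C (-0.13), WT A (-0.11) or WT B (-0.13). The number of these 10 genes called lower was 2 without R783H A, R783H C, WT A or WT B. Cnot1 has a near-identical stretch of 903 nt in Gm6158 and Cnot3 one of 1116 nt in Gm9207, so their counts are uncertain to the extent that reads were split or dropped.

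**Figure D3:**
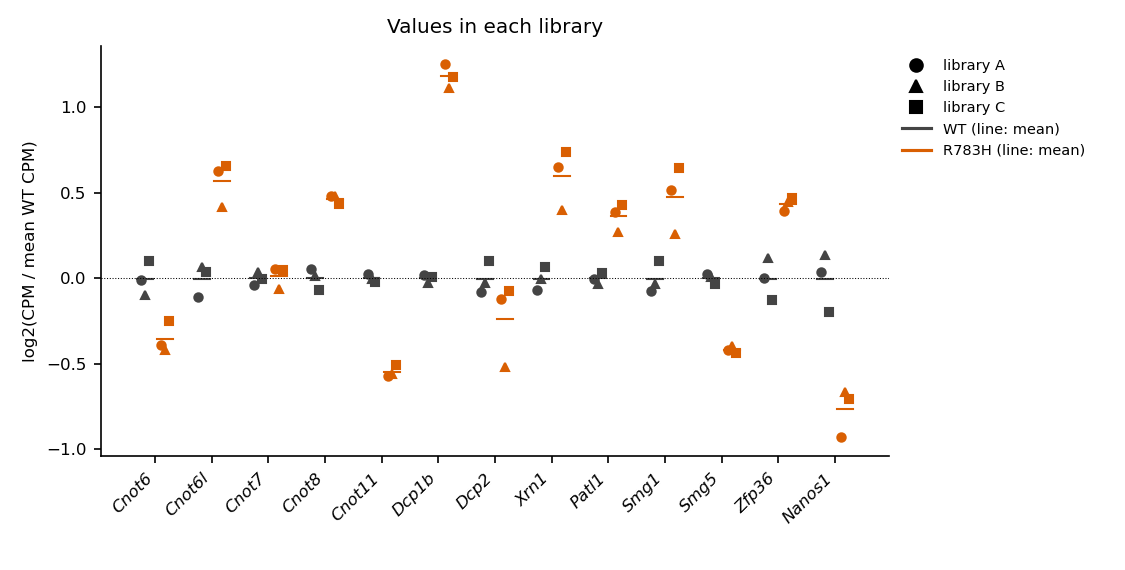
Log2 of CPM relative to the WT mean (y axis) in each library for 13 members; circles, triangles and squares are libraries A, B and C, dark symbols WT and orange symbols R783H, and lines mark group means. Cnot6 and Cnot6l separate in opposite directions, and the R783H B triangle lies apart from A and C for Dcp2, Smg1 and Xrn1.

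PAN2 is the other cytoplasmic deadenylase and PAN3 the partner that tethers it to poly(A)-binding protein; both mRNAs rose. Of the 5 genes of these deadenylases and their adaptors 3 were called higher and 1 lower, against 2 and 1 under the length and GC offset. The shares of all tested genes were 33.5% higher and 30.9% lower, and 30.6% and 37.3% with the offset. Pan3 rose by 0.39 (SE 0.08, adjusted p 9.03e-04), with 36.1 to 39.5 CPM in the WT libraries and 43.3 to 52.7 CPM in the R783H libraries, and Pan2 by 0.21 (SE 0.05, adjusted p 0.00391), with 73.5 to 76.8 and 83.1 to 90.9 CPM. The call of Pan2 was lost with the length and GC offset (0.08). Parn, a nuclear and cytoplasmic poly(A) ribonuclease, fell by 0.20 on the log2 scale (SE 0.05, adjusted p 0.00449), with 60.3 to 64.2 CPM in WT libraries and 52.6 to 55.7 CPM in R783H libraries. Neither group overlapped the other for these genes.

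TOB1 and TOB2 are antiproliferative adaptors that link CNOT7 and CNOT8 to poly(A)-binding protein. Tob1 (chr11:94209842-94215495) was at 38, 34.7 and 38.5 CPM in R783H and 31.1, 31.6 and 31.4 CPM in WT, without overlap (log2 fold change 0.24, SE 0.06, adjusted p 0.00402). Tob2 (chr15:81848270-81858326) was at 32.9, 32.6 and 37.0 CPM in R783H and 35.3, 32.8 and 31.0 CPM in WT, and was not called (0.05, SE 0.07). The log2 ratio of Tob1 to Tob2 counts was 0.21, 0.09 and 0.06 in R783H against -0.18, -0.05 and 0.02 in WT, a shift of 0.19 that placed every R783H library above every WT library, by a narrow margin for C.

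Of the 11 decapping and 5′-to-3′ decay genes, 5 rose, 1 fell and 5 were not called, against 4 higher and 6 lower under the length and GC offset. All tested genes were 33.5% higher and 30.9% lower, and 30.6% and 37.3% with the offset. DCP1A and DCP1B are alternative activators of the decapping enzyme DCP2, and Dcp1b had the largest change of all members. Dcp1b (chr6:119175253-119221614) was counted 140, 120 and 131 times in the R783H libraries and 40, 47 and 42 times in WT, which is 4.66, 4.23 and 4.42 CPM against 1.98, 1.92 and 1.97 CPM. The log2 fold change was 1.18 (SE 0.13, adjusted p 1.36e-05), a 2.27-fold rise, and ran from 1.13 to 1.26 over the 16 alternatives. Dcp1a (chr14:30479486-30527056), the abundant form, was at 92.8, 90.4 and 93.2 CPM in R783H and 80.9, 85.0 and 86.9 CPM in WT, giving a log2 fold change of 0.13 (SE 0.05, adjusted p 0.0306). The call of Dcp1a was lost without R783H A (0.11), R783H C (0.11), WT A (0.10) or WT B (0.13), and its sign turned with the length and GC offset (-0.09). Per length, Dcp1a exceeded Dcp1b 25.3-fold in WT and 12.3-fold in R783H, so the minor form remained the minor form.

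The catalytic subunit Dcp2 (chr18:44380500-44424969) was at 223, 169.5 and 231 CPM in R783H and at 230.3, 239 and 260.4 CPM in WT. R783H C overlapped WT A, and R783H B was far below the others. The log2 fold change of -0.22 (SE 0.10) had an adjusted p of 0.0623. Dcp2 was called lower without R783H A (-0.29), without R783H B (-0.12) or without R783H C (-0.32), and also with RLE factors, DESeq2 or no filter, and the length and GC offset gave -0.56. Its transcript is 8616 nt long. The activators Edc3 (66.8 to 77.1 CPM over the 6 libraries, log2 fold change -0.09) and Edc4 (238 to 272 CPM, -0.10), the helicase Ddx6 (274 to 348 CPM, -0.08) and Lsm14a (-0.08) were not called; Edc3 and Edc4 were called lower without R783H B (-0.16 and -0.13), and Edc4 without WT C (-0.14). Without R783H B, 4 of the 11 genes were thus called lower, and 2 without R783H A, without R783H C or without WT C. Under the length and GC offset Edc3 (-0.29), Edc4 (-0.20), Ddx6 (-0.31), Lsm14a (-0.13) and Dcp2 were all called lower. Exons of Edc3 share 1121 nt with Clk3 on the other strand.

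LSM14A and LSM14B are paralogs that bind DDX6 and repress translation, and PATL1 bridges DDX6 and the LSM ring to the decapping enzyme. Lsm14b (chr2:180024900-180035466) fell by 0.35 on the log2 scale (SE 0.06, adjusted p 4.93e-04), at 52.7, 47.7 and 53.8 CPM in R783H against 69.7, 63.7 and 62.9 CPM in WT. Lsm14a (chr7:34344144-34390026) was at 205, 188 and 208 CPM in R783H and 211, 212 and 215 CPM in WT; the groups did not overlap, by a narrow margin. Patl1 rose by 0.36 (SE 0.05, adjusted p 8.00e-05), with 93.9 to 98.1 CPM in WT libraries and 116 to 129 CPM in R783H libraries.

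XRN1 is the cytoplasmic 5′-to-3′ exonuclease and XRN2 its nuclear relative. Xrn1 (chr9:95954750-96057806) was at 48.5, 40.7 and 51.5 CPM in R783H and 29.5, 30.8 and 32.3 CPM in WT. Every R783H library was above every WT library, with a log2 fold change of 0.60 (SE 0.08, adjusted p 7.66e-05), which the length and GC offset reduced to 0.22 while leaving it called. Xrn2 (chr2:147012755-147078000) was at 279, 271.5 and 278 CPM in R783H and 231, 244.5 and 256 CPM in WT, giving a log2 fold change of 0.18 (SE 0.05, adjusted p 0.00520). Xrn1 remained far less abundant, at 0.0424 of Xrn2 per length in WT and 0.0566 in R783H. Their log2 count ratio shifted by 0.42, and by 0.12 with the offset. Xrn1 shares exon sequence with Gm16794 and C78334 on the other strand.

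**Figure D4:**
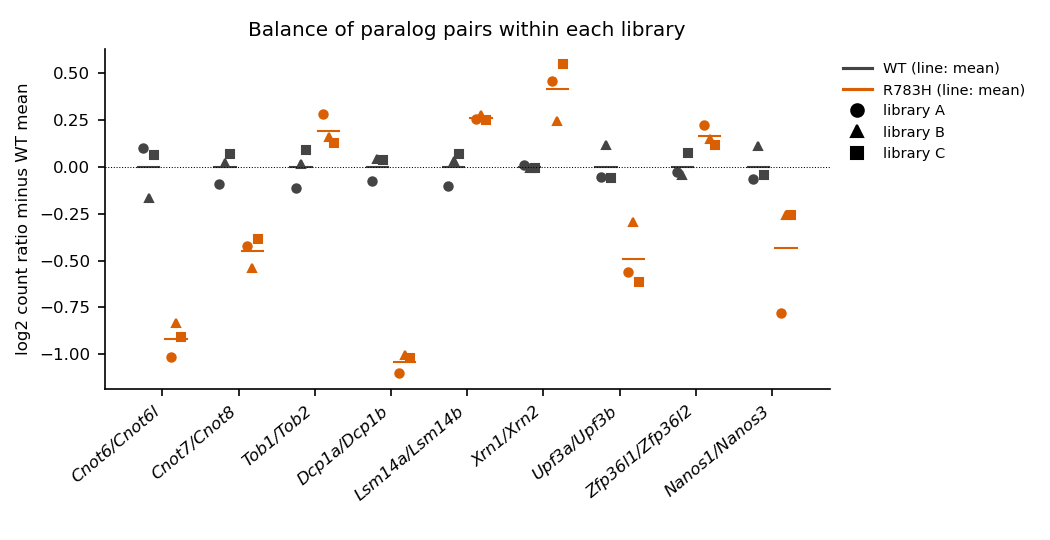
Log2 ratio of the counts of 9 pairs of paralogs within each library, minus the WT mean of that ratio (y axis); symbols are libraries A, B and C, dark WT and orange R783H, and lines mark group means. The ratios of Dcp1a to Dcp1b and Cnot6 to Cnot6l moved furthest, by -1.04 and -0.92, and that of Zfp36l1 to Zfp36l2 least, by 0.16. Ratios of other gene pairs were not computed for comparison.

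Of the 9 nonsense-mediated decay genes 4 were called higher, 4 lower and 1 was not called, and under the length and GC offset 2 were higher and 4 lower. Beside these counts stand 33.5% higher and 30.9% lower of all tested genes, and 30.6% and 37.3% with the offset. The RNA helicase UPF1 is phosphorylated by the kinase SMG1, whose activity SMG8 and SMG9 restrain, and phosphorylated UPF1 recruits SMG5 and SMG6. Upf1 (chr8:70331493-70353423) was at 349, 361 and 361 CPM in R783H and 413.5, 401 and 390 CPM in WT, giving a log2 fold change of -0.17 (SE 0.04, adjusted p 0.00382). Smg1 (chr7:118131308-118244437), whose transcript of 15557 nt is the longest of the members, was at 293, 245 and 319.9 CPM in R783H against 195, 199.8 and 219.9 CPM in WT. Its log2 fold change was 0.48 (SE 0.08, adjusted p 4.17e-04), with R783H B the lowest of its group, and fell to 0.03, not called, with the length and GC offset. The kinase inhibitors were Smg8, at 68.7 to 77.4 CPM in R783H libraries and 79.6 to 85.1 CPM in WT libraries (-0.20, SE 0.06, adjusted p 0.00809), and Smg9, at 24.3 to 27.6 CPM over all 6, which was not called (-0.06, SE 0.06).

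The effectors downstream of UPF1 differed. Smg5, which recruits deadenylation and decapping, fell by 0.42 on the log2 scale (SE 0.04, adjusted p 4.56e-06), with 285 to 296 CPM in WT libraries and 215 to 221 CPM in R783H libraries, and was at -0.49 with the length and GC offset. Smg6 (chr11:74925854-75164448), the endonuclease that cuts near the premature stop codon, was at 90.1, 87.4 and 92.5 CPM in R783H and 80.6, 80.8 and 83.4 CPM in WT, giving a log2 fold change of 0.14 (SE 0.05, adjusted p 0.0177). The call of Smg6 was lost without R783H A (0.13), R783H C (0.11), WT A (0.13) or WT B (0.13), and the length and GC offset gave -0.06.

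UPF2 bridges UPF1 to UPF3, and UPF3A and UPF3B are paralogs that link the pathway to exon junctions. Upf2 rose by 0.35 (SE 0.08, adjusted p 0.00282), with 60.4 to 65.3 CPM in WT libraries and 68.3 to 87.9 CPM in R783H libraries, with R783H B the lowest of its group. Upf3a (chr8:13785055-13798723) was at 66.6, 66.4 and 69.0 CPM in R783H against 76.2, 80.6 and 76.8 CPM in WT, giving a log2 fold change of -0.21 (SE 0.05, adjusted p 0.00229). Upf3b (chrX:37091678-37110471) moved the other way, at 49.3, 40.8 and 52.9 CPM in R783H against 39.7, 37.3 and 40.2 CPM in WT (log2 fold change 0.29, SE 0.09, adjusted p 0.0111). Upf3b was not called without R783H C (0.20) or WT B (0.26). The log2 ratio of Upf3a to Upf3b counts was 0.43, 0.70 and 0.38 in R783H and 0.94, 1.11 and 0.94 in WT, a shift of -0.49, and per length Upf3a exceeded Upf3b 2.27-fold in WT and 1.62-fold in R783H. Without R783H C or WT B, 2 of the 9 genes were called higher.

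Among the 6 mRNA-binding repressors 1 rose, 2 fell and 3 were not called, against 1 higher and 3 lower under the length and GC offset. For all tested genes the shares were 33.5% higher and 30.9% lower, and 30.6% and 37.3% with the offset. PUM2 recognises the TGTANATA element, of which its own 3′ UTR holds the matches shown above. Pum2 (chr12:8674092-8752583) was at 255, 226 and 260.0 CPM in R783H and 214, 221 and 236 CPM in WT; R783H B lay within the WT range. Its log2 fold change of 0.14 (SE 0.06) had an adjusted p of 0.0530. Pum2 was called higher without R783H B or without WT C (0.18 in both fits). It was also called higher with upper-quartile factors, library size alone, no filter, at least 10 counts in every library, the replicate block or equal depth (0.14 to 0.22). Only the length and GC offset called it lower (-0.11), so its direction depended on the processing.

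ZFP36, ZFP36L1 and ZFP36L2 bring CCR4-NOT to mRNAs with AU-rich elements. Zfp36 (chr7:28376784-28379228) was low, counted 178, 174 and 185 times in the R783H libraries and 91, 120 and 88 times in WT, or 5.92, 6.13 and 6.25 CPM against 4.51, 4.89 and 4.12 CPM. Its log2 fold change was 0.43 (SE 0.11, adjusted p 0.00432), and 0.44 with the length and GC offset. Zfp36l1 (chr12:80107760-80113013), the most abundant of these 6 genes per length in WT (43.2 ± 1.49 CPM per kilobase), was at 132, 123 and 131 CPM in R783H and 125, 129 and 134 CPM in WT, with a log2 fold change of -0.01 (SE 0.05, not called). Zfp36l2 (chr17:84183924-84187947) was at 49.3, 48.7 and 52.8 CPM in R783H against 55.7, 58.1 and 55.7 CPM in WT, giving a log2 fold change of -0.17 (SE 0.05, adjusted p 0.0136) that was not called without WT B (-0.15). The 3 genes hold the same number of TATTTAT matches and were called higher, not called and called lower, in that order. Whether the matches bear on these values was not tested. Of the 6 repressor genes 2 were called higher without R783H B or without WT C, and 1 lower without WT B. Zfp36l1 shares 1491 nt of exon sequence with Gm26669 on the other strand.

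NANOS proteins act with Pumilio proteins and are best known from germ cells. Nanos1 (chr19:60755987-60759914) was counted 111, 126 and 128 times in the R783H libraries and 146, 190 and 131 times in WT, or 3.69, 4.44 and 4.32 CPM against 7.23, 7.75 and 6.14 CPM. It had the largest decrease of the members, with a log2 fold change of -0.77 (SE 0.12, adjusted p 2.49e-04), and -0.88 with the length and GC offset. Nanos3 (chr8:84173733-84176552) was counted 75, 59 and 60 times in R783H and 60, 69 and 53 times in WT, or 2.50, 2.08 and 2.03 CPM against 2.97, 2.81 and 2.48 CPM. Its log2 fold change of -0.32 (SE 0.15) had an adjusted p of 0.0876, and it was called lower only in the fit without R783H A (-0.44). Both genes rest on fewer than 200 counts in any library.

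Of 18 members with a TATTTAT match 7 were called higher and 5 lower, and of 23 without a match 10 were higher and 7 lower. For TGTANATA the counts were 5 higher and 3 lower of 15 with a match, and 12 higher and 9 lower of 26 without. Among tested genes with an annotated 3′ UTR, 43.0% of the 3739 with TATTTAT were higher and 23.3% lower. Of the 8962 without it 30.1% were higher and 35.7% lower. For TGTANATA these shares were 42.8% and 24.6% with a match (3286 genes) and 30.8% and 34.6% without (9415 genes). All these counts and shares are without the length and GC offset. Genes with a match also had longer 3′ UTRs, with a median of 2117 nt against 816 nt for TATTTAT and 2168 nt against 857 nt for TGTANATA, and that difference was not separated from the match.

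Other genes of mRNA decay outside the 41 were read from the same fit, in lists chosen with earlier results of these data known. The shares of all tested genes to set beside their counts are 33.5% higher and 30.9% lower. With the length and GC offset these shares are 30.6% and 37.3%. The RNA exosome degrades mRNA from the 3′ end and the SKI complex feeds it. Of 17 exosome, SKI and ribosome-rescue genes 13 were called lower and 1 higher, with a median log2 fold change of -0.38, beside 0.03 for all genes. Exosc4 (31.0 ± 2.65 CPM in R783H, 54.8 ± 2.65 CPM in WT, SD, n = 3), Exosc3 (40.8 ± 2.15 against 68.1 ± 2.74 CPM) and Pelo (10.3 ± 0.416 against 16.4 ± 1.17 CPM) had the largest changes, at -0.82 (SE 0.07), -0.74 (SE 0.06) and -0.67 (SE 0.08). With the length and GC offset 13 of the 17 were again lower, with a median of -0.31. The gene that rose, Ttc37 of the SKI complex (0.21, SE 0.06) was not called without R783H C (0.15) or without WT B (0.18).

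The LSM1 to LSM7 ring binds shortened tails and promotes decapping. Of 14 genes of the ring and other decapping factors 10 were lower and 3 higher, with a median of -0.26 (3 higher and 9 lower under the length and GC offset). Lsm2 was at 118 ± 2.69 CPM in WT and fell to 72.9 ± 2.54 CPM (change of -0.70 on the log2 scale, SE 0.05), whereas Patl2, the oocyte relative of Patl1, was at 8.50 ± 0.423 CPM in WT and rose 3.69-fold to 31.4 ± 1.48 CPM (SD, n = 3), which is 1.88 on the log2 scale (SE 0.07). Pnrc1, a cofactor that binds the decapping enzyme, rose by 0.71 (SE 0.05). These 3 fold changes were -0.61, 1.86 and 0.74 with the length and GC offset.

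Exon junction proteins mark spliced mRNA for nonsense-mediated decay. Of 14 exon junction and further decay factors 8 were lower and 2 higher, with a median of -0.37 (1 higher and 9 lower under the length and GC offset), led by Ruvbl2 (-0.70, SE 0.06), Eif4a3 (-0.67, SE 0.05) and Magoh (-0.62, SE 0.06). Of 13 genes with transcripts known as substrates of the pathway 5 were higher and 6 lower, Ddit3 (0.78, SE 0.09), Atf3 (0.64, SE 0.20) and Tra2b (-0.62, SE 0.05) having the largest values. For several of these, Tra2b among them, just some isoforms are substrates, and counts per gene do not separate isoforms. The number called higher was 2 without R783H A, and 3 without WT A or without WT B; Atf3 lost its call when R783H A (0.58), R783H B (0.51) or WT B (0.62) was left out.

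Of 10 tested further deadenylation factors 7 were lower and 1 higher, with a median of -0.20. Btg3 was not called (0.78, adjusted p 0.0551), on 98, 45 and 63 counts in R783H and 34, 41 and 15 in WT, and its groups overlapped. It was called higher without R783H B and under 6 further alternatives, the length and GC offset and DESeq2 among them. Btg4 had no count in any library. Noct, a relative of the CCR4 enzymes, changed by -0.63 (SE 0.05), the antiproliferative adaptor Btg1 by 0.63 (SE 0.05) and the nuclear deadenylase Toe1 by -0.51 (SE 0.06). Cnot9, a core CCR4-NOT subunit outside the 41, had 149 to 150.5 CPM in R783H libraries and 158 to 167 CPM in WT libraries (-0.13, SE 0.04, adjusted p 0.0192), and was not called without WT A or without WT C (-0.12 in both fits). Of 15 genes of poly(A) binding and tail remodelling 5 were higher and 6 lower, against 4 and 8 under the length and GC offset. The nuclear poly(A)-binding protein gene Pabpn1 fell by 0.70 on the log2 scale (SE 0.04), the uridylyltransferase gene Zcchc6 (also called Tut7) rose by 0.66 (SE 0.08), and Dis3l2, whose product degrades uridylated RNA, rose by 0.61 (SE 0.06).

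Of 25 tested further 3′ UTR-binding regulators 8 were higher and 7 lower, the median being 0.11; 14 were higher without R783H B, and under the length and GC offset 7 were higher and 13 lower, the median being -0.17. Cpeb1 (1.32, SE 0.22) and Cpeb2 (1.26, SE 0.19), regulators of cytoplasmic polyadenylation, rose from highest WT values of 1.27 and 2.20 CPM, and the endonuclease gene Zc3h12a changed by -0.93 (SE 0.10). Exosc3, Exosc4, Pelo, Ruvbl2, Ddit3, Pabpn1, Toe1, Zcchc6, Cnot9, Cpeb2 and Btg3 overlap or nearly match exons of another annotated gene. Noct, Tra2b and Btg1 have near-identical stretches elsewhere, so the counts of all these genes are uncertain to that extent.

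**Figure D5:**
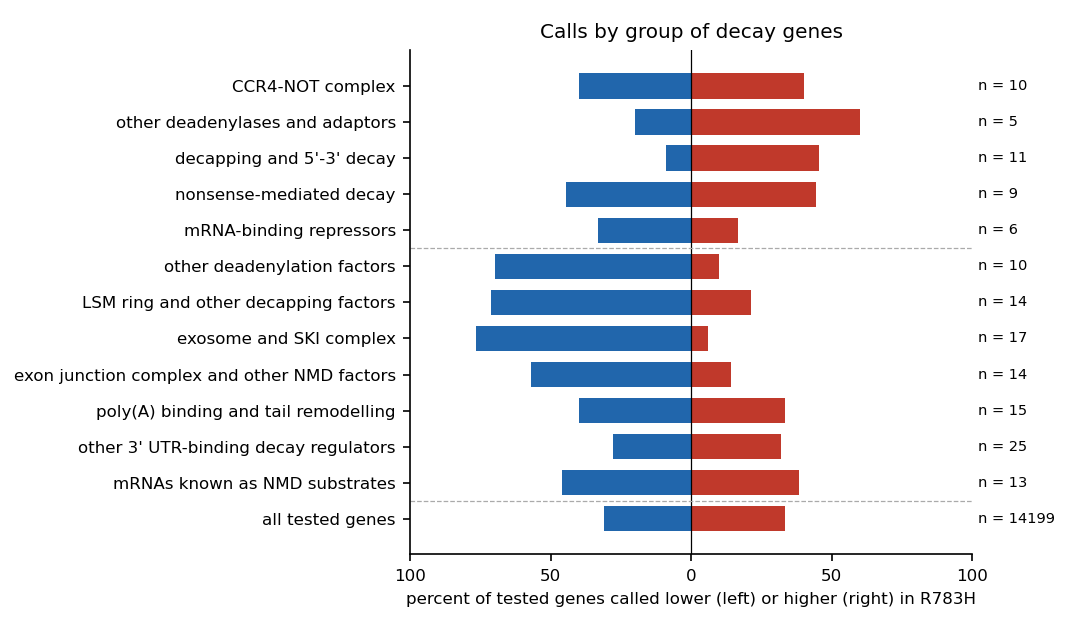
Percent of the tested genes of each group called lower (bars to the left) or higher (bars to the right) in R783H by edgeR's quasi-likelihood test; the 5 upper groups are the 41 members by role, the middle groups are other decay genes, and the bottom bar is all tested genes. Exosome, LSM ring and exon junction genes lean to the left, with 13 of 17, 10 of 14 and 8 of 14 lower, against 30.9% of all tested genes. The CCR4-NOT and nonsense-mediated decay members are split 4 to 4 here. With the length and GC offset they are, in that order, 1 higher to 4 lower and 2 higher to 4 lower. Members and lists were chosen with earlier results of these data known.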

How the data were processed

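The file the authors deposited holds raw read counts, whole numbers for each Entrez Gene identifier and library, without normalization. CASAVA 1.4, HISAT2, SAMtools and the mm10 build are named per the submitters' processing notes; the counting tool, annotation and use of strand are not given in the sources used here, so reads of overlapping genes cannot be told apart. Symbols and coordinates came from RefSeq on GRCm38.p6 (25275 identifiers matched), and lengths, GC content, overlaps and 3′ UTRs from GENCODE M21. Near-identical stretches (98% identity over 100 nt) were found with BLAST 2.17.0.

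Genes were filtered with filterByExpr (minimum count 10, minimum total 15) and scaled by TMM. They were tested with edgeR 4.0.16 (R 4.3.3), quasi-likelihood test with group as the single term and Benjamini-Hochberg adjustment over 14199 genes. Every adjusted p is from this fit, except those given with the length and GC offset, which were adjusted over 13763 genes. SE is the size of the log2 fold change divided by the square root of F. The common biological coefficient of variation was 5.45%, and 3 counts are worth 0.0998 to 0.149 CPM, counting error alone. The length and GC offset was a spline fit (5 degrees of freedom each) per library over the 96.9% of tested genes with both values. Paralog ratios used counts plus 0.5 and no test. Levels per length used the longest protein-coding transcript of each gene, and orders of genes by such levels depend on that choice. Alternatives were RLE, upper-quartile and no factors, other filters, DESeq2 1.42.0, limma-voom (limma 3.58.1), a replicate block, the offset, equal depth and leaving out each library. The main fit was tried on simulated counts with the same dispersion for all genes, which real genes do not share. Of 100 genes changed 2-fold 89 were called, of 100 changed 1.5-fold 82, and of the unchanged genes 7. A simulated trend with length alone gave 3851 called genes without the offset and 0 with it. The members and lists were chosen with earlier results of these data known. Values in every library are given for members called with an absolute log2 fold change of at least 0.5, for paralog pairs and for Cnot1, Dcp2, Xrn1, Upf1, Smg1, Smg6 and Pum2; in each other list the 3 called genes with the largest change are named, with Cnot9; some genes that this rule names are not reported here. Ttc37, Btg3 and the marker genes with their own values were named after those values were seen.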

Additional observations from a re-analysis of the deposited data

How the results depend on the processing

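The number of members called higher (17) ran from 13 to 18 with a library left out and was 10 with the length and GC offset; the number called lower (12) ran from 9 to 15 with a library left out and was 6 when libraries were scaled by size alone. The median over members (0.02) ran from -0.022 without R783H C to 0.034 without WT B, and was 0.097 with library size alone and -0.072 with the offset. The offset turned the sign of Cnot1 (-0.13), Dcp1a (-0.086), Smg6 (-0.061) and Pum2 (-0.11) among the members. It also turned that of Ttc37 (-0.060), Nbas (-0.027), Larp1 (-0.17), Rc3h1 (-0.17), Rc3h2 (-0.13), Ythdf3 (-0.17), Tnrc6a (-0.25) and Trim71 (-0.26) among other genes. With the offset Cnot1, Pum2, Larp1, Rc3h1, Rc3h2, Ythdf3, Tnrc6a and Trim71 were called lower, while Dcp1a, Smg6, Ttc37 and Nbas were not called. The cause was not tested. Library size alone also ended the calls of Cnot3, Cnot10, Parn, Upf1, Smg8 and Zfp36l2. Deviations from the group mean correlated at -0.17, 0.03 and 0.20 for the like letters A, B and C, and at -0.29 to 0.28 for unlike letters. With 3 libraries in each group these deviations depend on each other, so whether letters pair the libraries could not be decided. With the replicate block 18 members were called higher and 12 lower, Dcp2 (-0.24) and Pum2 (0.14) were gained and Cnot3 (-0.12) was lost. Depth limits Dcp1b, Zfp36, Nanos1 and Nanos3, which had fewer than 200 counts in every library.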
